A study of Mus musculus with 9 samples.

Results

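Müller glia are the radial glial cells that span the neural retina, and 10 genes of their supporting functions were followed here in mouse retinas kept under white light-emitting diode (LED) light. The genes were a list of Müller glia genes, chosen with earlier results of these data known. It held genes for water (Aqp4), potassium (Kcnj10), glutamate (Glul, Slc1a3) and acid-base handling (Car14). It also held 3 genes of secreted or hormone-binding proteins (Clu, Dkk3, Crym), the transcription factor Sox9 and the transporter Abca8a. All probe sets annotated with a single member symbol were taken, 24 in all, and the brightest over the 9 arrays stood for the gene. They were 10 of 18193 genes with such a probe set and 10 of 12761 genes bright enough to be tested.

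RNA was measured on 9 Affymetrix Mouse Genome 430 2.0 arrays from female mice of 10 weeks of age and of an albino strain that the labels spell Babl/c (BALB/c). One group was kept under white LED light with a correlated colour temperature of 7378K, a bluish white, another under LED light of 2954K, a warm white, each at 1000 lx. Control mice were kept in what the labels call a relatively dark environment, with no illuminance given. The light was on for 12 h and off for 12 h a day over 14 days in all groups, controls included per the labels, each array held a pool of 3 right-eye retinas separated from the pigment epithelium, and n = 3 arrays per group. Values below are log2 signals, so a difference of 1 is a doubling of the array signal, and levels of different probe sets cannot be set against each other. P values measure the spread between these pools, and in bulk tissue fewer cells of a type and less RNA per cell cannot be told apart.

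Müller glia take up glutamate released by neurons through Slc1a3 (also called GLAST) and convert it to glutamine with Glul (glutamine synthetase). They carry potassium away from active neurons through Kcnj10 (the channel Kir4.1) and water through Aqp4 (aquaporin-4), both concentrated at the end feet on vessels and at the vitreous surface. In injured or stressed retina these cells enter a reactive state, in which the filament protein Gfap is a common readout. Another Müller glia gene, Rlbp1, which encodes the retinaldehyde-binding protein CRALBP and was chosen for this check after its values were seen, read 13.05 to 13.20 on the 7378K arrays, 13.01 to 13.50 on the 2954K arrays and 13.21 to 13.34 on the control arrays. This marker was bright in every pool, and its 7378K arrays all lay below the control arrays. The 7378K and control arrays did not overlap for 36.4% of all genes. Rlbp1 is 1 gene of the list of other Müller glia genes below, most of which went the other way under 7378K light. Of 11 tested there, 8 differed above 0 and 3 below in each contrast. Their median difference was 0.14 under 7378K light and 0.26 under 2954K light.

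The promoters of both glutamate genes are shown because the probe sets of each gene disagreed below, in size for Glul and in direction for Slc1a3. Each is the window of 250 bases before to 50 bases after the annotated start of the gene in RefSeq's mouse build GRCm38.p6. Promoters were found for 5 of the 10 genes (Glul, Slc1a3, Kcnj10, Car14, Abca8a), and Aqp4, Crym, Clu, Dkk3 and Sox9 are named only. Both strands were searched for TTCNNNGAA (the palindrome bound by STAT factors, present in 8.3% of 32851 such promoters), AACAAT (a SOX core, in 10.7%) and TTGGCA (an NFI binding-site core, in 14.1%). Capitals mark a match. Slc1a3 lies on the minus strand at chr15:8710758-8711057 and Glul on the plus strand at chr1:153899679-153899978.
Slc1a3: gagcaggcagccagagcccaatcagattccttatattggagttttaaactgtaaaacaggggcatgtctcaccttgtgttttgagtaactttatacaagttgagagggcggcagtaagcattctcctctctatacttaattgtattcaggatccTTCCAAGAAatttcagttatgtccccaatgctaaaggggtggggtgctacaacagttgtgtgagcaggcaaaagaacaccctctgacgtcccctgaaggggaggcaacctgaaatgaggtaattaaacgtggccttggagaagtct
Glul: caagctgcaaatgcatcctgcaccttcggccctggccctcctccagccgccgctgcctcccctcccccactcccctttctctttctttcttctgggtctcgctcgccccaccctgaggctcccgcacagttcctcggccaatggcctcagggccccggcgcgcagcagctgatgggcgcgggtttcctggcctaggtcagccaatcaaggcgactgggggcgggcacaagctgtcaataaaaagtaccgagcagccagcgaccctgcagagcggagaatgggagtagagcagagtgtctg
The Slc1a3 window held 1 STAT match, and the Glul window held no match. Of the other windows, that of Abca8a held 1 NFI match and none held a SOX core. A match is a run of letters and no evidence of binding.

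Against control, 3 of the 10 genes rose under 7378K light and none fell, whereas 2 rose and none fell with 2954K light. Crym and Aqp4 rose under both lights, and Clu rose under 7378K light. Across all tested genes, 2.36% rose and 1.16% fell under 7378K light, while 1.03% rose and 0.188% fell with 2954K light (limma, Benjamini-Hochberg adjusted p under 0.05, both LED contrasts sharing the same 3 control arrays). The median log2 difference of the 10 genes was 0.35 under 7378K light, beside 0.04 over all tested genes, and 0.28 under 2954K light, beside 0.01. For 7 of the 10 genes the difference was above 0 in each contrast, beside 56.0% of all genes under 7378K light and 51.8% under 2954K light. The 7378K and control arrays did not overlap for 7 of the 10 genes, beside 36.4% of all genes, and the 2954K and control arrays did not overlap for 4, beside 15.2%.

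**Figure D1:**
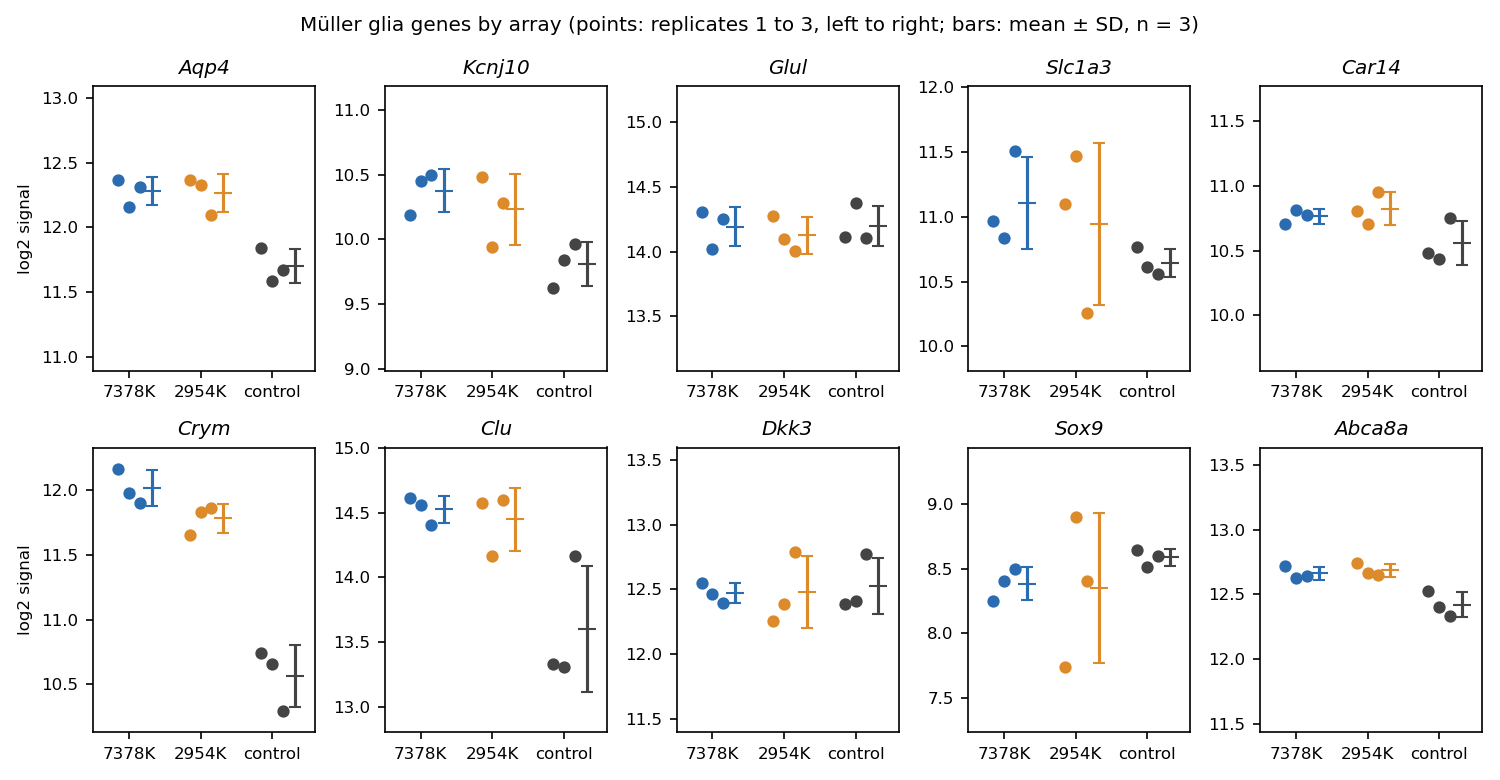
Log2 signal of the main probe set of each gene on the 3 arrays of the 7378K, 2954K and control groups; points are replicates 1 to 3 from left to right and bars the mean ± SD (n = 3). Crym and Clu are lowest in the control arrays, with Clu of control replicate 3, at 14.16, close to the LED arrays, while Glul lies between 14.00 and 14.37 on all 9 arrays.

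Aqp4, the water channel of the end feet, had log2 signals of 12.37, 12.16 and 12.31 on the 7378K arrays, 12.37, 12.33 and 12.10 on the 2954K arrays, and 11.84, 11.59 and 11.67 on the control arrays. All 6 LED arrays lay above all 3 control arrays. Aqp4 rose by 0.58 under 7378K light (95% confidence interval 0.34 to 0.81, 1.49-fold, limma adjusted p = 0.0131). It rose by 0.57 under 2954K light (interval 0.33 to 0.80, 1.48-fold, limma adjusted p = 0.0256). Both calls depended on single arrays and on the processing. When the probe sets of the gene were averaged, the difference was 0.23 under 7378K light (limma adjusted p = 0.588) and 0.43 under 2954K light (0.493). Both calls were also lost without the intensity trend (limma adjusted p = 0.0574 and 0.10). With the 3' minus 5' difference of the dap labelling spike-in as a covariate neither passed (0.53, limma adjusted p = 0.223 under 7378K light, and 0.54, 0.0582 under 2954K light). The dap difference was 2.76, 2.70 and 2.77 on the 7378K arrays, 3.02, 1.34 and 2.19 on the 2954K arrays, and 1.64, 1.37 and 1.81 on the control arrays. Since the 7378K and control arrays did not overlap in it, light and the dap difference cannot be told apart in that contrast. A call lost with this covariate therefore does not show that labelling made the difference. The 7378K call was lost without control replicate 2 (0.52, limma adjusted p = 0.0878), 7378K replicate 1 (0.53, 0.0901) or 7378K replicate 3 (0.56, 0.0694). The 2954K call was lost without control replicate 2 (0.51, limma adjusted p = 0.159), control replicate 3 (0.55, 0.0635) or 2954K replicate 1 (0.51, 0.0589), and also without 7378K replicate 1 (0.57, 0.0517) or 7378K replicate 3 (0.57, 0.0576), which enter through the shared spread. The other Aqp4 probe sets were dimmer, between 6.10 and 8.28 on every array, and did not pass the test.

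Proteins that hold Aqp4 at the membrane or carry water in other cells were taken as a list of 12 genes, of which 9 were tested; 1 rose and 1 fell under 7378K light, and none passed under 2954K light. Agrn (agrin, a matrix protein of the end-foot basal lamina) read 10.94, 11.21 and 10.89 on the 7378K arrays, 10.90, 10.53 and 11.03 on the 2954K arrays, and 10.13, 10.36 and 10.29 on the control arrays. The 3 control arrays were the lowest. Agrn rose by 0.76 under 7378K light (1.69-fold, limma adjusted p = 0.0128), and its 2954K difference was 0.56 (limma adjusted p = 0.0959). Aqp1, a water channel that in mouse retina is known from photoreceptors and some amacrine cells, read 10.89, 10.90 and 10.78 on the 7378K arrays, 11.09, 11.10 and 11.48 on the 2954K arrays, and 11.32, 11.27 and 11.52 on the control arrays. It fell by 0.51 under 7378K light (limma adjusted p = 0.0399), against a 2954K difference of -0.15 (limma adjusted p = 0.643). Sntb1, a syntrophin of the dystrophin complex, differed by 0.22 and 0.50 under 7378K and 2954K light and passed neither test. The list's median difference was 0.16 under 7378K light and 0.18 under 2954K light, beside 0.04 and 0.01 over all genes.

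Kcnj10, the potassium channel, had log2 signals of 10.19, 10.45 and 10.50 on the 7378K arrays, 10.48, 9.94 and 10.28 on the 2954K arrays, and 9.63, 9.84 and 9.96 on the control arrays. The 7378K arrays all lay above the controls, while 2954K replicate 2 lay below control replicate 3. The difference was 0.57 under 7378K light (95% confidence interval 0.23 to 0.90, limma adjusted p = 0.0637) and 0.42 under 2954K light (interval 0.09 to 0.75, limma adjusted p = 0.265), so that Kcnj10 missed the threshold in both. It passed under 7378K light without 2954K replicate 1 (limma adjusted p = 0.0211) or 2954K replicate 2 (0.0205), and under 2954K light without 2954K replicate 2 (difference 0.57, limma adjusted p = 0.0367). It also passed under 7378K light with only the compared groups in the fit (limma adjusted p = 0.00969), and was lower there with the covariates for labelling, at 0.21 with dap (0.808) and 0.32 with Gapdh and beta-actin (0.582).

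Of 10 further potassium channel and sodium pump genes, 6 were tested, of which 1 fell under 7378K light and none passed under 2954K light. Atp1b1, the pump's beta-1 subunit, read 12.44, 12.49 and 12.62 on the 7378K arrays, 12.51, 13.35 and 12.83 on the 2954K arrays, and 13.10, 13.43 and 13.42 on the control arrays. It fell by 0.80 under 7378K light (limma adjusted p = 0.0299), with a 2954K difference of -0.42 (limma adjusted p = 0.338). Among the 2954K arrays, Atp1b1 was at the control level on replicate 2 and lowest on replicate 1. The labelling measure from Gapdh and beta-actin, given below, was 0.21 on replicate 2 and 2.78 on replicate 1. This measure was 1.55 to 1.80 on the 7378K arrays and 0.20 to 0.42 on the controls. Its part in the Atp1b1 fall was not tested. Atp1b2, the beta-2 subunit found on glia and photoreceptors, differed by 0.54 under 7378K light (limma adjusted p = 0.0958) and 0.27 under 2954K light (0.518). Kcnj13, a potassium channel known from pigment epithelium, differed by 0.70 and 1.24 under 7378K and 2954K light without passing either test (limma adjusted p = 0.376 and 0.26). The list's median difference was 0.11 under 7378K light and 0.03 under 2954K light.

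Beside Kcnj13, the mean log2 signal of 9 pigment epithelium markers (8 bright enough to be tested, none called) was 7.42, 7.72 and 8.60 on the 7378K arrays, 8.93, 8.20 and 9.27 on the 2954K arrays, and 7.56, 7.50 and 9.33 on the control arrays. The part of this signal in the Kcnj13 values was not tested. With the marker mean as a covariate, Kcnj10 passed under 7378K light (0.61, limma adjusted p = 0.0265), Aqp4 passed under 7378K light (0.57, 0.0156) and missed the threshold under 2954K light (0.59, 0.0506), and Crym passed under both (1.41 and 1.34). In the same fit Clu passed under 7378K light (0.995, limma adjusted p = 0.00265) and missed the threshold under 2954K light (0.63, 0.123).

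For Glul, the brightest probe set (1426236_a_at) read 14.31, 14.02 and 14.25 on the 7378K arrays, 14.28, 14.10 and 14.00 on the 2954K arrays, and 14.11, 14.37 and 14.10 on the control arrays. The groups overlapped, and these signals were near the highest on the arrays, where the brightest probe set read 14.96 to 15.42. The difference was -0.003 under 7378K light (95% confidence interval -0.26 to 0.25, limma adjusted p = 0.992) and -0.07 under 2954K light (interval -0.33 to 0.19, limma adjusted p = 0.839). The other probe set of Glul (1426235_a_at) read 10.85, 10.81 and 10.87 on the 7378K arrays, 10.72, 11.50 and 11.13 on the 2954K arrays, and 11.51, 11.86 and 11.55 on the control arrays. On that probe set all LED arrays lay below the controls. In a fit over every probe set, where 2.51% of 22646 probe sets were called under 7378K light and 0.64% under 2954K light, it fell by 0.80 under 7378K light (1.74-fold, limma adjusted p = 0.042), with a 2954K difference of -0.53 (limma adjusted p = 0.285).

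Slc1a3 had 6 probe sets, and they did not move one way. The main one (1443749_x_at) read 10.97, 10.84 and 11.51 on the 7378K arrays, 11.10, 11.47 and 10.25 on the 2954K arrays, and 10.77, 10.61 and 10.56 on the control arrays. The 2954K arrays fell on both sides of the controls. Its difference was 0.46 under 7378K light (95% confidence interval -0.10 to 1.02, limma adjusted p = 0.316) and 0.30 under 2954K light (interval -0.27 to 0.86, limma adjusted p = 0.658). Another bright probe set (1452031_at) read 11.09, 11.43 and 11.41 on the 7378K arrays, 10.96, 10.73 and 11.02 on the 2954K arrays, and 10.43, 10.35 and 10.51 on the control arrays. It rose by 0.88 under 7378K light in the fit over every probe set (1.84-fold, limma adjusted p = 0.0051), with a 2954K difference of 0.47 (limma adjusted p = 0.163). A dim one (1426341_at) went the other way, with 5.45, 6.89 and 6.70 on the 7378K arrays, 5.63, 9.12 and 6.67 on the 2954K arrays, and 8.71, 9.21 and 8.54 on the control arrays. Its difference was -2.47 under 7378K light (limma adjusted p = 0.0855) and -1.68 under 2954K light (limma adjusted p = 0.396). The remaining 3 probe sets differed by -0.05 to 0.68 under 7378K light and by 0.11 to 0.33 under 2954K light, and none passed.

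**Figure D2:**
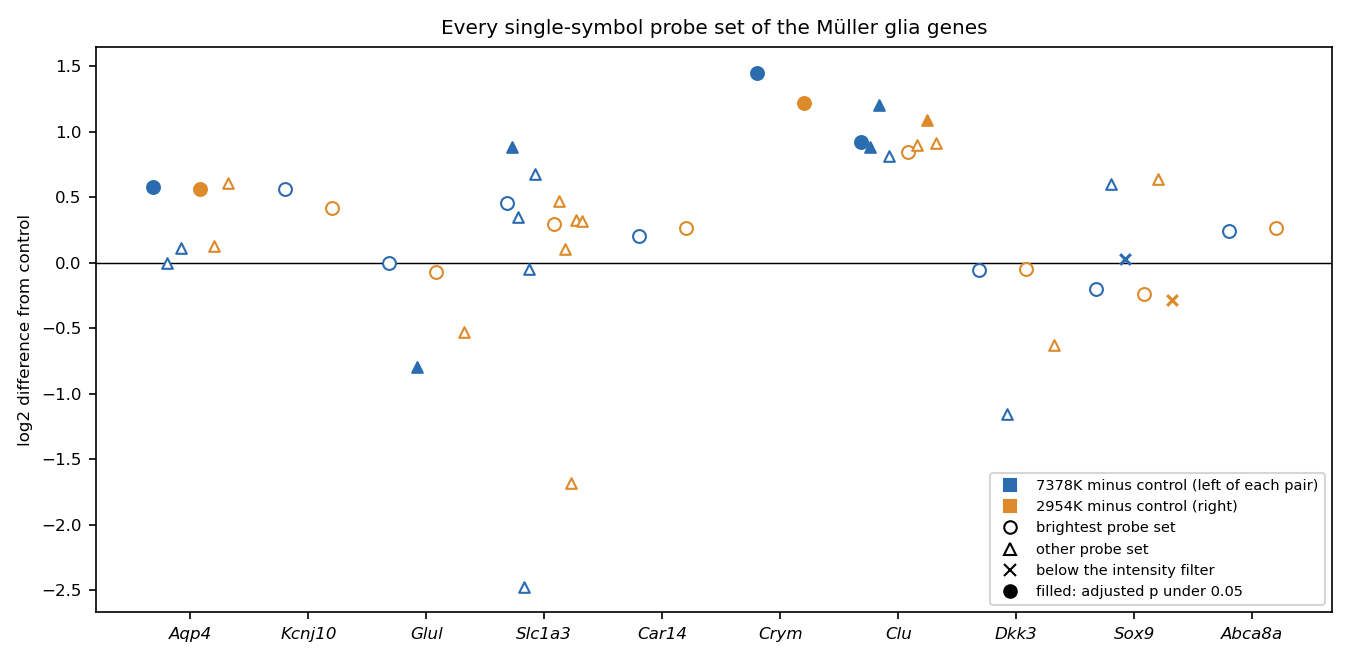
Log2 difference from control of all 24 probe sets, 7378K on the left and 2954K on the right of each gene; circles are the brightest probe set, triangles the others, crosses a probe set below the intensity filter, and filled symbols passed the test in the fit over every probe set. All 4 Clu probe sets lie above 0, whereas Glul, Slc1a3 and Dkk3 each have a probe set at least 0.53 below control in both contrasts.

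The probe sets that read low under LED light followed the ratio of 3' to 5' signal, a measure of how far labelling reached from the 3' end of a transcript. The 3' minus 5' log2 difference of the Gapdh and beta-actin control probe sets was 1.80, 1.67 and 1.55 on the 7378K arrays, 2.78, 0.21 and 1.05 on the 2954K arrays, and 0.33, 0.20 and 0.42 on the control arrays. The value of 2954K replicate 2 was at the level of the controls, and on that array the low probe sets of Glul, Slc1a3 and Dkk3 were also at or near control levels (11.50, 9.12 and 12.13). With this difference as a covariate in the fit over every probe set, a use of the covariate added after seeing the data, the 7378K differences were -0.39 for Glul 1426235_a_at (limma adjusted p = 0.295) and -0.72 for Slc1a3 1426341_at (limma adjusted p = 0.744). The rise of Slc1a3 1452031_at remained, at 0.79 (limma adjusted p = 0.0392). In the fit over 12761 genes with the same covariate, Crym kept its calls under both lights (1.55 and 1.29 under 7378K and 2954K light), whereas Aqp4 (0.52 in both, limma adjusted p = 0.123 and 0.088) and Clu (0.70 under 7378K light, limma adjusted p = 0.328) did not. Since the 7378K and control arrays did not overlap in the 3' minus 5' difference, light and this difference cannot be told apart in that contrast.

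**Figure D3:**
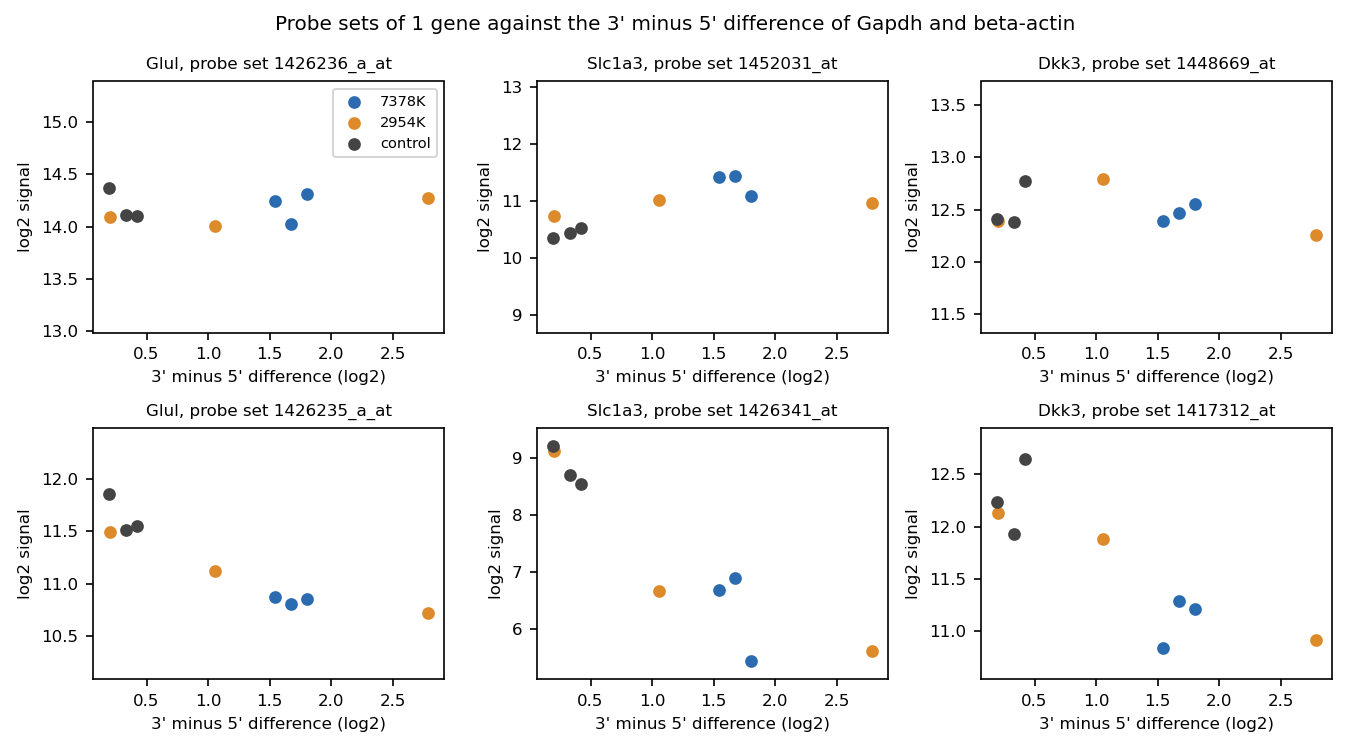
Log2 signal of 6 probe sets, a high and a low one each for Glul, Slc1a3 and Dkk3, against the 3' minus 5' log2 difference of Gapdh and beta-actin on the same array; each point is 1 of 9 arrays, coloured by group. The lower panels fall with the difference, with 2954K replicate 2 (at 0.21) among the controls, and the Slc1a3 probe set in the upper row is above control on all LED arrays, that replicate included (10.73 against 10.35 to 10.51).

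Of 12 further glutamate and glutamine genes, 9 were tested, of which 1 rose under 7378K light and none passed under 2954K light. Slc1a1, a glutamate transporter known mainly from neurons, read 10.79, 10.75 and 11.22 on the 7378K arrays, 10.59, 10.37 and 10.70 on the 2954K arrays, and 9.79, 9.77 and 10.21 on the control arrays. Every LED array was above every control. Slc1a1 rose by 1.0 on the log2 scale under 7378K light (2.00-fold, limma adjusted p = 0.0048), and its 2954K difference was 0.63 (limma adjusted p = 0.10). Got1, a cytosolic aspartate aminotransferase, differed by -0.74 under 7378K light (limma adjusted p = 0.115) and -0.49 under 2954K light, with 2954K replicate 2 (12.52) at the control level of 12.25 to 12.57. Slc38a2, a glutamine transporter, differed by 0.41 under 7378K light (limma adjusted p = 0.102) and 0.24 under 2954K light. The list's median difference was 0.08 under 7378K light and -0.04 under 2954K light.

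Water, potassium and glutamate genes were also set against each other within each array, where array scaling cancels; only changes of such a log2 ratio can be read, not its level. The Aqp4 to Glul ratio was -1.94, -1.86 and -1.94 on the 7378K arrays, -1.91, -1.77 and -1.90 on the 2954K arrays, and -2.27, -2.79 and -2.43 on the control arrays. It was higher on all 6 LED arrays, by 0.58 under 7378K light and 0.64 under 2954K light (two-sided exact permutation p = 0.1 each, the smallest that 3 against 3 arrays allow, and 0.45 after adjustment over the 18 ratio tests). The Kcnj10 to Glul ratio differed by 0.57 under 7378K light (exact permutation p = 0.1, no overlap with control) and 0.49 under 2954K light (exact permutation p = 0.2). The Glul to Slc1a3 ratio differed by -0.46 under 7378K light (exact permutation p = 0.1, no overlap) and -0.37 under 2954K light (exact permutation p = 0.4). The Aqp4 to Kcnj10 ratio differed by 0.01 under 7378K light (exact permutation p = 0.9) and 0.14 under 2954K light (exact permutation p = 0.5). When the probe sets of a gene were averaged, its 7378K difference was -0.33, so the value near 0 held for the brightest Aqp4 probe set and not for the average. Averaging also moved the 7378K difference of the Kcnj10 to Glul ratio, to 0.97. That of the Kcnj10 to Slc1a3 ratio went from 0.11 to 0.59. For none of the 18 did the adjusted p pass, and with this number of arrays it could not.

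**Figure D4:**
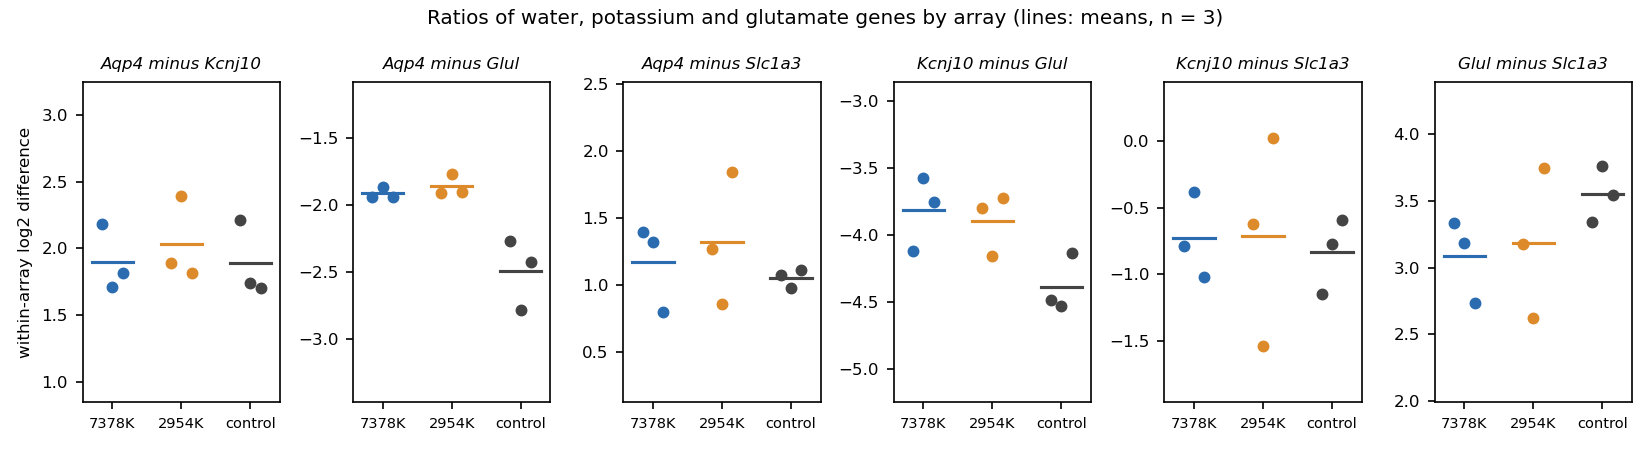
Within-array log2 ratios for the 6 pairs among Aqp4, Kcnj10, Glul and Slc1a3, by array and group, with lines at the group means (n = 3) and the same axis length in all panels. The Aqp4 to Glul ratio lies between -1.94 and -1.77 on the LED arrays and between -2.79 and -2.27 on the control arrays, while the Aqp4 to Kcnj10 ratio overlaps between groups.

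Car14, a membrane-bound carbonic anhydrase that speeds the conversion of carbon dioxide to bicarbonate, had log2 signals of 10.70, 10.81 and 10.77 on the 7378K arrays, 10.81, 10.70 and 10.96 on the 2954K arrays, and 10.48, 10.44 and 10.75 on the control arrays. The groups overlapped through control replicate 3. The difference was 0.21 under 7378K light (95% confidence interval -0.04 to 0.45, limma adjusted p = 0.302) and 0.27 under 2954K light (interval 0.02 to 0.51, limma adjusted p = 0.345). Of 10 further acid-base and lactate genes, 8 were tested and none passed in either contrast. Those with the smallest p were Bsg (basigin, which brings lactate transporters to the membrane), which differed by -0.78 under 7378K light (limma adjusted p = 0.0715), Slc16a1 (a lactate transporter), by -0.36 (0.0825), and Slc4a4 (a sodium bicarbonate cotransporter), by -0.50 (0.176).

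Crym encodes mu-crystallin, a cytosolic protein that binds thyroid hormone, and had the largest difference of the 10 genes in both contrasts. Its log2 signals were 12.17, 11.98 and 11.90 on the 7378K arrays, 11.65, 11.83 and 11.86 on the 2954K arrays, and 10.74, 10.65 and 10.29 on the control arrays. The 3 groups did not overlap. Crym rose by 1.45 under 7378K light (95% confidence interval 1.17 to 1.73, 2.74-fold, limma adjusted p = 5.06e-05) and by 1.22 under 2954K light (interval 0.94 to 1.50, 2.33-fold, limma adjusted p = 0.000284). It was called in all 21 alternative fits of each contrast, at 1.32 to 1.61 under 7378K light and 1.04 to 1.34 under 2954K light. Of 8 further thyroid hormone genes, 5 were tested and none passed. Dio2, the deiodinase that activates the hormone, differed by 0.55 under 7378K light (limma adjusted p = 0.179) and 0.58 under 2954K light (0.298), and Slco1c1, a transporter of the hormone, by -0.43 (0.135) and -0.31 (0.429). Thra, a receptor of the hormone, differed by 0.36 under 7378K light and 0.17 under 2954K light.

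Clu encodes clusterin, a secreted chaperone, and had log2 signals of 14.61, 14.56 and 14.41 on the 7378K arrays, 14.58, 14.16 and 14.60 on the 2954K arrays, and 13.33, 13.31 and 14.16 on the control arrays. Control replicate 3 lay just under the lowest LED array. Clu rose by 0.92 under 7378K light (95% confidence interval 0.48 to 1.37, 1.90-fold, limma adjusted p = 0.0288), and its 2954K difference of 0.85 missed the threshold (interval 0.40 to 1.29, 1.80-fold, limma adjusted p = 0.0802). All 4 Clu probe sets were higher in both LED groups, by 0.82 to 1.20 under 7378K light and 0.85 to 1.09 under 2954K light, and of these 3 passed under 7378K light and 1 under 2954K light. Without control replicate 3 the 2954K difference was 1.13 (limma adjusted p = 0.0014), and without 2954K replicate 2 it was 0.99 (0.0217). The 7378K call was lost without control replicate 1 (0.79, limma adjusted p = 0.115), control replicate 2 (0.78, 0.143), 7378K replicate 1 (0.88, 0.131), 7378K replicate 2 (0.91, 0.105) or 7378K replicate 3 (0.98, 0.0784), and the difference was 0.53 (0.588) with the dap covariate. Like Glul, Clu read near the highest signals on the arrays.

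Lens signal was highest on the third array of each group. The mean log2 signal of 7 lens markers (5 bright enough to be tested, none called) was 4.57, 3.62 and 7.17 on the 7378K arrays, 3.82, 4.68 and 9.51 on the 2954K arrays, and 5.88, 4.25 and 12.11 on the control arrays. Clu was highest on the third array among the controls and lowest on it among the 7378K arrays. Among the 2954K arrays the third was also the highest, by little (14.60, against 14.58 and 14.16). The third arrays were also the highest of their groups in pigment epithelium signal. With the third array of each group left out, a setting chosen after seeing the data, Clu differed by 1.26 under 7378K light (limma adjusted p = 0.00626) and 1.05 under 2954K light (limma adjusted p = 0.0199). In that fit Aqp4 no longer passed (0.55 under 7378K light, limma adjusted p = 0.138, and 0.63 under 2954K light, 0.135), and Crym did (1.37 and 1.04).

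Dkk3, a secreted protein of the Dickkopf family that is abundant in Müller glia, had log2 signals of 12.55, 12.47 and 12.39 on the 7378K arrays, 12.26, 12.39 and 12.79 on the 2954K arrays, and 12.39, 12.41 and 12.78 on the control arrays. The groups overlapped. The difference was -0.05 under 7378K light (95% confidence interval -0.37 to 0.26, limma adjusted p = 0.858) and -0.05 under 2954K light (interval -0.36 to 0.27, limma adjusted p = 0.922). Its other probe set (1417312_at) read 11.21, 11.29 and 10.84 on the 7378K arrays, 10.92, 12.13 and 11.88 on the 2954K arrays, and 11.93, 12.24 and 12.64 on the control arrays, a difference of -1.16 under 7378K light (limma adjusted p = 0.0582) and -0.63 under 2954K light (0.405). It was among the probe sets that followed the 3' minus 5' difference, and with that covariate it differed by -0.54 and -0.16. Of 8 further Dickkopf and Wnt receptor genes, 3 were tested and 1 of them rose in both contrasts. That was Kremen1, a receptor of Dickkopf proteins, with 10.26, 10.00 and 9.41 on the 7378K arrays, 9.79, 9.72 and 9.92 on the 2954K arrays, and 7.65, 8.16 and 7.74 on the control arrays. All LED arrays were well above the controls. Kremen1 rose by 2.04 under 7378K light (4.13-fold, limma adjusted p = 0.000157) and by 1.96 under 2954K light (3.90-fold, limma adjusted p = 0.000284). The Wnt receptors Fzd5 and Lrp6 differed by 0.14 and 0.20 under 7378K light and passed neither test.

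Sox9, a transcription factor that marks Müller glia nuclei, had log2 signals of 8.25, 8.40 and 8.50 on the 7378K arrays, 7.74, 8.90 and 8.40 on the 2954K arrays, and 8.65, 8.51 and 8.60 on the control arrays. The 2954K arrays spanned a wider range than the 7378K and control arrays together. The difference was -0.20 under 7378K light (95% confidence interval -0.73 to 0.32, limma adjusted p = 0.659) and -0.24 under 2954K light (interval -0.77 to 0.29, limma adjusted p = 0.706). Another Sox9 probe set (1451538_at) gave the opposite sign, 0.60 and 0.64 under 7378K and 2954K light, and did not pass either (limma adjusted p = 0.22 and 0.396). The remaining one (1433889_at) was below the filter.

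Of 12 other glial transcription factors and Notch pathway genes, all tested, 4 rose under 7378K light and none passed under 2954K light. Sox2, needed to maintain Müller glia, read 11.24, 11.01 and 11.31 on the 7378K arrays, 10.95, 11.21 and 10.94 on the 2954K arrays, and 10.59, 10.51 and 10.53 on the control arrays. All LED arrays were above the controls. Sox2 rose by 0.65 under 7378K light (limma adjusted p = 0.00821), with a 2954K difference of 0.49 (limma adjusted p = 0.066). Sox8, a relative of Sox9, rose by 0.91 (limma adjusted p = 0.0352), the receptor Notch1 by 0.66 (0.0146) and the homeobox factor Rax by 0.44 (0.0486) under 7378K light. Their 2954K differences were 0.46, 0.23 and 0.47 (limma adjusted p = 0.376, 0.461 and 0.0665). The list's median difference was 0.40 under 7378K light and 0.30 under 2954K light, beside 0.04 and 0.01 over all genes.

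Abca8a, an ATP-binding cassette transporter of the A subclass, had the smallest standard error of the 10 genes, with log2 signals of 12.72, 12.63 and 12.64 on the 7378K arrays, 12.74, 12.66 and 12.65 on the 2954K arrays, and 12.53, 12.40 and 12.34 on the control arrays. The LED and control arrays did not overlap. The difference was small, 0.24 under 7378K light (95% confidence interval 0.05 to 0.43, limma adjusted p = 0.136) and 0.26 under 2954K light (interval 0.07 to 0.46, limma adjusted p = 0.217). Of 4 related A-subclass transporters, 3 were tested (Abca5, Abca8b and Abca9), with differences of 0.01 to 0.36 under 7378K light and -0.01 to 0.45 under 2954K light, and none passed.

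**Figure D5:**
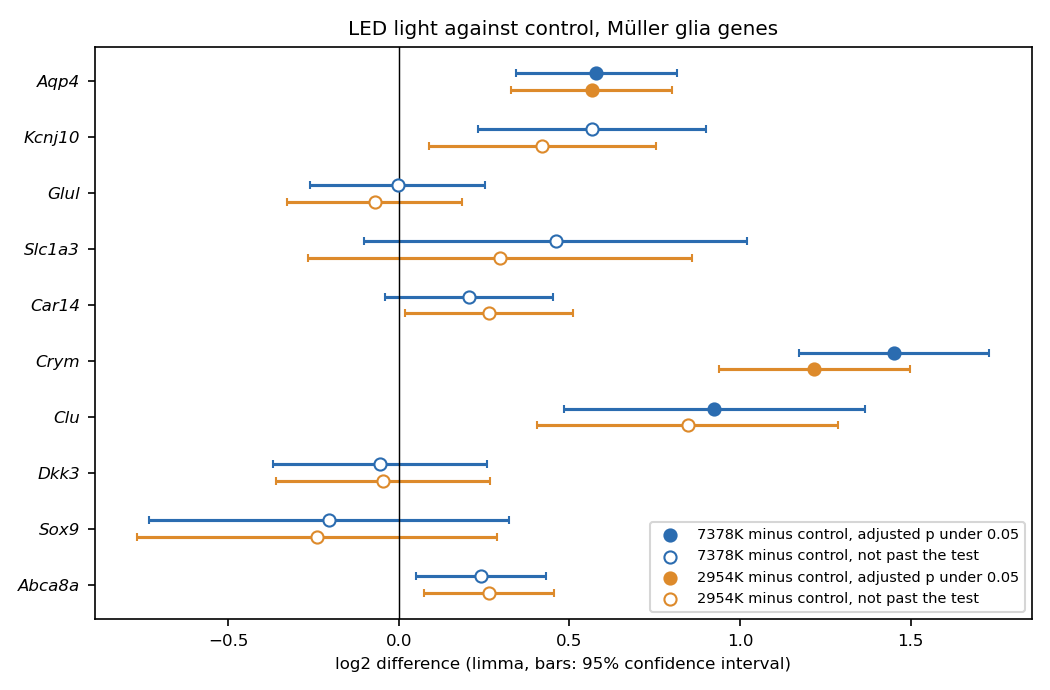
Log2 difference from control of the 10 genes under 7378K and 2954K light, with 95% confidence intervals from the limma fit; filled symbols passed an adjusted p of 0.05. Crym lies at 1.45 and 1.22, Clu at 0.92 and 0.85 and Aqp4 at 0.58 and 0.57, while the intervals of Glul, Slc1a3, Dkk3 and Sox9 include 0 in both contrasts.

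Between the LED lights, none of the 10 genes passed, nor did any of the 12761 tested genes (0% called by limma, with 519 genes, 4.07%, at an unadjusted p under 0.05 and none of the 10 among them). The 7378K minus 2954K differences of the 10 genes ran from -0.06 to 0.23, and their 95% confidence intervals, all including 0, reached from -0.49 to 0.73 at the widest. Crym was the only one of the 10 whose 7378K and 2954K arrays did not overlap, as for 8.56% of all genes. Its difference was 0.23 (95% confidence interval -0.05 to 0.51, limma adjusted p = 0.978). These intervals do not show that the lights acted alike.

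Among 12 other Müller glia genes, 11 were tested, of which 1 rose under 7378K light and none passed under 2954K light. Cd9, a tetraspanin, read 11.53, 11.47 and 11.58 on the 7378K arrays, 11.19, 11.40 and 11.50 on the 2954K arrays, and 10.99, 10.89 and 11.12 on the control arrays. It rose by 0.53 under 7378K light (limma adjusted p = 0.0189), with a 2954K difference of 0.36 (limma adjusted p = 0.153). Mfge8, a secreted protein that bridges dying cells and phagocytes, differed by 0.33 and 0.42 under 7378K and 2954K light, and Spc25, a kinetochore protein, by -0.48 in each. Neither passed. Gfap, in the astrocyte list and also the readout of reactive Müller glia, read 8.27, 8.48 and 8.08 on the 7378K arrays, 7.85, 7.69 and 7.75 on the 2954K arrays, and 6.15, 7.25 and 6.91 on the control arrays. It rose by 1.50 under 7378K light (2.83-fold, limma adjusted p = 0.0107), with a 2954K difference of 0.99 (limma adjusted p = 0.127).

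The genes most like the called members were chosen by the smallest root mean square difference between log2 profiles, each centred on its own mean, over the 9 arrays. Members, and genes whose symbol was Gm with a number or held Rik, were left out of this choice. Nearest to Crym were Caprin2, an RNA-binding protein (0.105), Hey2, a repressor downstream of Notch (0.13), and Agtpbp1, an enzyme that trims glutamates from tubulin (0.165). Caprin2 read 11.38, 11.16 and 11.29 on the 7378K arrays, 10.96, 10.90 and 11.10 on the 2954K arrays, and 9.92, 9.84 and 9.71 on the control arrays. As in Crym, the 3 groups did not overlap. Nearest to Aqp4 were Phactr2 (0.0641), Dlg5 (0.0885) and Cfap126 (0.0979). Nearest to Clu were Pdpn, a membrane glycoprotein (0.0909), Htra1, a secreted protease (0.109), and S1pr3, a sphingosine-1-phosphate receptor (0.113). Pdpn read 12.35, 12.30 and 12.24 on the 7378K arrays, 12.31, 12.01 and 12.19 on the 2954K arrays, and 11.22, 11.04 and 11.80 on the control arrays, with control replicate 3 highest of its group as in Clu.

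Some markers of other cell types also differed between the groups, and their part in the results above was not tested. Of 5 tested astrocyte markers, 1 rose under 7378K light (Gfap), and their summed signal, on the log2 scale, was 10.77 to 11.26 on the 7378K arrays, 10.85 to 12.71 on the 2954K arrays and 10.17 to 12.31 on the control arrays. Of 5 tested microglia markers, 3 (Aif1, Csf1r and C1qa) rose in both contrasts, with summed signals of 11.61 to 11.84, 11.81 to 11.91 and 10.15 to 10.72 on the 7378K, 2954K and control arrays. In each contrast 1 of the 5 differed below 0, by -0.44 under 7378K light and -0.08 under 2954K light. Of 5 rod markers, 3 (Cnga1, Cngb1 and Prph2) fell under 7378K light and none passed under 2954K light, with summed signals of 16.11 to 16.37, 16.08 to 16.47 and 16.28 to 16.58. The other 2 rod markers differed above 0 under 7378K light, by at most 0.03. The summed astrocyte and rod signals overlapped between the groups. No oligodendrocyte, endothelial or extraocular muscle marker passed in either contrast. Control replicate 3 stood apart in extraocular muscle signal, with a mean log2 signal of 8.07 over 6 markers, against 4.45 to 5.76 on the other 8 arrays.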

How the data were processed

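The deposited values were log2 signals of 45101 probe sets on 9 arrays, 0 of them missing. MAS5 and affy are named, without version or role, per the submitters' processing notes, and the authors' values behave as MAS5-type signals. On the linear scale each array had a 2% trimmed mean of 500.00 and no further normalisation was applied. Detection calls and signal over background were not used here, and precision is limited by having 3 arrays per group. Of the probe sets, 34945 had 1 gene symbol in the platform annotation, 34741 of them matched by gene identifier to RefSeq's GRCm38.p6. Genes with a mean under the 40th percentile of probe set means (5.91) were left out. limma 3.58.1 in R 4.3.3 (1 mean per group over all 9 arrays, 6 residual degrees of freedom, eBayes with trend) gave adjusted p-values over 12761 genes, called at 0.05. The fit was also run on simulated data with independent noise for each gene and array. Those data held no array-wide differences in labelling or carried-over tissue, so they could not test the calls against these. The fit over every probe set used the same filter. The files were read with the data.table package (version 1.17.8) and pandas 2.3.3, and plots drawn with matplotlib 3.10.9.

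Named genes were the 10 members, up to 3 genes per list with the smallest unadjusted p and every called list gene, and the 3 nearest profiles of each called member. The members, lists and tests were chosen with earlier results of these data known. Alternatives changed the probe set rule, filter, scaling, covariates, block and arrays.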

Additional observations from a re-analysis of the deposited data

How the results depend on the processing

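Calls among the 10 genes rested on 3 arrays per group, and adjusted p-values near 0.05 moved with single arrays. Of 10 genes, 3 passed under 7378K light, 2 with 2954K light. Each count was 1 when the probe sets of a gene were averaged, without the intensity trend, and with the 3' minus 5' covariate of Gapdh and beta-actin or of the dap spike-in. Over all tested genes, these fits in the same order called 255, 207, 136 and 77 genes under 7378K light. Under 2954K light they called 82, 101, 102 and 117. With only the compared groups in the fit the counts were 5 and 1 for 7378K and 2954K light, beside 2174 and 68 of all tested genes. With the pigment epithelium marker covariate they were 4 and 1, beside 606 and 95. Leaving out 1 array gave 1 to 4 genes in each contrast. The 7378K count was 1 without control replicate 2 or 7378K replicate 1 or 3. It was 4 without 2954K replicate 1 or 2, where 1517 and 1211 of all tested genes were called. The 2954K count was 1 without control replicate 2, 7378K replicate 1 or 3, or 2954K replicate 1. It was 4 without 2954K replicate 2, beside 897 of all tested genes, against 156 in the main fit. With the replicate number as a block the counts were 3 and 2 for 7378K and 2954K light. Same-numbered arrays correlated by 0.06 to 0.33 in their deviations, with every pair above 0 and 5 of 9 pairs over 0.1. Of the 9 arrays, 8 correlated best with their own number. The main fit took no pairing, and whether same-numbered arrays shared their handling was not tested. The block took the count over all genes to 638 under 7378K light, against 449 without it, and to 163 under 2954K light, against 156.

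Signs turned for uncalled genes only. With averaged probe sets, Slc1a3 differed by -0.025 and -0.026 for 7378K and 2954K light, and Sox9 by 0.14 and 0.038. With arrays centred on their medians, Glul differed by 0.077 and 0.0023 for 7378K and 2954K light, and Dkk3 by 0.025 and 0.026. With the 3' minus 5' covariate, Dkk3 differed by 0.041 and 0.026 for 7378K and 2954K light, and Sox9 by 0.39 and 0.21. With the dap covariate, Sox9 differed by 0.51 and 0.12 for 7378K and 2954K light. Without the third arrays, Dkk3 differed by 0.11 under 7378K light. Leaving out 1 array gave -0.061 to 0.086 for Glul and -0.12 to 0.071 for Dkk3 under 7378K light. Under 2954K light it gave -0.15 to 0.019 for Glul, -0.20 to 0.080 for Dkk3 and -0.51 to 0.064 for Sox9. The causes were not tested. Over all genes the 7378K count ran from 77 (dap covariate) to 2174 (compared groups only), or 144 to 1517 with 1 array left out. The 2954K count ran from 68 to 170, or 79 to 897 with 1 array left out. Between the LED lights 0 genes passed in every other setting, and 0 to 29 with 1 array left out.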
